A study of Citrus reticulata with 36 samples.

Results

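The nucellus and the integument of ponkan mandarin (Citrus reticulata) ovules were compared at 18 days after pollination (DAP), the earliest of the 3 stages sampled. The libraries were selected by their labels and column names, and 12 of the 36 libraries of the series belong to this stage, with 3 for each tissue in each of 2 cultivars. MT is the cultivar Huagan No.4 ponkan and WT is Egan No.1 ponkan, and MT is only a name here since no label explains it. No treatment is given for any group. Cells were cut out of tissue sections with a laser under the microscope (laser capture microdissection), and their RNA was amplified before RNA-seq. The labels call the 3 libraries of a group biological replicates, but do not say how many plants or ovules went into a capture, nor whether both tissues of a number came from the same ovules. P-values therefore measure the spread between these libraries. The same tissues at 28 and 32 DAP, 24 libraries, were used to ask which tissue differences belong to 18 DAP. The tables give the stage as a digit from 1 to 3, read here as 18, 28 and 32 DAP in the order of the design text, and every DAP below depends on that reading.

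The nucellus is the maternal tissue that encloses the embryo sac. The integument forms the layers around it, which later become the seed coat. In many citrus types, cells of the nucellus can themselves form embryos that are genetically identical to the mother plant, a process called nucellar embryony. The deposited feature identifiers carry no gene names, so the results are given by identifier and level, no function is attached to any feature, and the tissue labels could not be checked against marker genes of either tissue.

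Total counts at 18 DAP ran from 12687779 to 20436963 per library, and 57344 of 128861 features passed the filter on low counts. Levels are CPM (counts relative to the library total) after TMM scaling, and a difference is the log2 ratio of nucellus to integument, positive where the nucellus was higher. A count of 0 in a library allows up to 3 counts, or 0.147 to 0.236 CPM on unscaled totals, for counting error only. The 100 most abundant features took 45.6% of the counts in WT nucellus replicate 3, against 16.03% to 24.66% in the other 5 nucellus libraries, and 38.98% in WT integument replicate 3, against 20.14% to 29.12% in the other 5 integument libraries. Results that rest on these WT libraries are given with and without them where their removal changed a count by over 1.5 times. In bulk RNA such as this, more cells of one type and more RNA per cell cannot be told apart.

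Tissue was the main axis of the 12 libraries. In a principal component analysis of log2 CPM, component 1 carried 37.3% of the variance, and its spread lay almost wholly between tissues (99.2%) and hardly between cultivars (0.1%). Cultivar accounted for 17.5% of the spread on the second component, which held 16% of the variance, and for 69% on the third, which held 9.8%. Summed over the tested features, 37.1% of the variance lay between tissues, 10.4% between cultivars and 48.2% between libraries of one group. The correlation of log2 CPM across features was 0.803 to 0.878 between a nucellus and an integument library, and 0.858 to 0.941 between cultivars within a tissue. Between libraries of a group it was 0.879 to 0.947. The tissue ranges and the within-tissue ranges overlapped between 0.858 and 0.878.

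At 18 DAP 10260 features differed between the tissues as the mean of both cultivars (17.9% of the 57344 tested; edgeR quasi-likelihood test, Benjamini-Hochberg adjusted p under 0.05). More of them were higher in the integument, 6292 features, than in the nucellus, 3968. The integument-higher features also differed by more: 5182 exceeded 2-fold, 3210 exceeded 4-fold and 1149 exceeded 16-fold, against 2423, 1198 and 396 of the nucellus-higher features. The median log2 difference was 1.24 for nucellus-higher features and -2.04 for integument-higher features, beside 0.02 over all features tested. Integument-higher calls outnumbered nucellus-higher calls under every scaling and test tried. The test did not treat same-numbered libraries as pairs. A fit with the replicate number as a block called more features and is given in the last section.

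Of the features with a level at or above the median of those tested, and with the same sign in all 6 same-numbered differences, c85961_g1 had the largest excess in the nucellus. Its nucellus level was 116, 144 and 88.9 CPM in MT replicates 1 to 3 and 105, 91.8 and 189 CPM in WT. In the integument it was 0.707, 1.28 and 1.13 CPM in MT and 0.646, 0.142 and 0.237 CPM in WT. Every nucellus library stood above every integument library, and the lowest WT integument level rested on 3 counts. The log2 difference was 7.70 ± 0.45 (SE, n = 6 libraries per tissue; edgeR adjusted p = 1.3e-12).

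The other nucellus-higher feature chosen in this way, c36715_g1, was more abundant and more variable. Its nucellus level was 739, 854 and 213 CPM in MT and 1105, 422 and 691 CPM in WT. The integument level was 2.24, 4.92 and 3.17 CPM in MT and 7.69, 0.189 and 1.54 CPM in WT. The groups did not overlap, although the levels varied several-fold in the nucellus and more widely in the integument. The lowest integument level, in WT replicate 2, rested on 4 counts. The log2 difference was 7.67 ± 0.74 (SE, n = 6 libraries per tissue; edgeR adjusted p = 1.7e-08).

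In the opposite direction, c51494_g1 was even across libraries. Its integument level was 78.9, 81.4 and 75.6 CPM in MT and 51.1, 83.9 and 46.7 CPM in WT. Its nucellus level was 0.659, 0.606 and 0.604 CPM in MT and 0.565, 1.07 and 1.15 CPM in WT. All 6 integument libraries lay far above all 6 nucellus libraries in both cultivars. The log2 difference was -6.49 ± 0.38 (SE, n = 6 libraries per tissue; edgeR adjusted p = 1.3e-12).

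The feature c78410_g1 had a similar difference with a wider spread. Its integument level was 82.1, 61.3 and 46.8 CPM in MT and 164, 96.9 and 11.4 CPM in WT. The nucellus level was 1.44, 0.606 and 0.604 CPM in MT and 1.47, 0.305 and 0.472 CPM in WT. WT integument replicate 3 was the lowest of its tissue, yet stood above every nucellus library. The log2 difference was -6.52 ± 0.93 (SE, n = 6 libraries per tissue; edgeR adjusted p = 8.2e-06). All 4 of these features were called in MT and in WT taken alone, and at 28 and at 32 DAP.

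**Figure D1:**
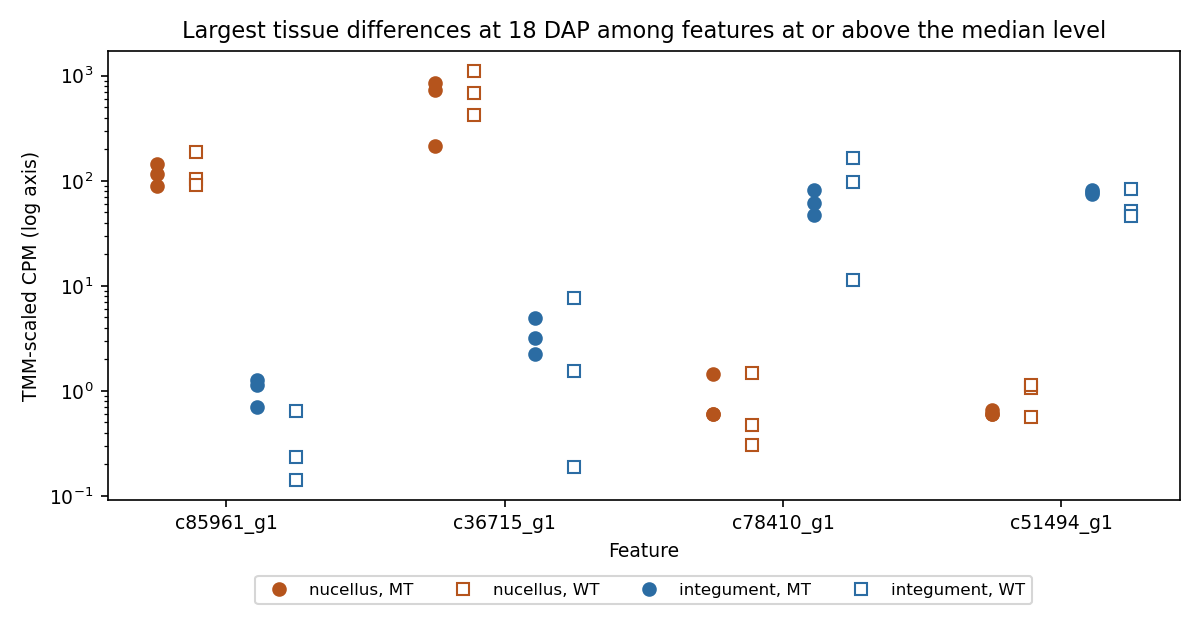
TMM-scaled CPM (log axis) of the 4 features with the largest tissue differences at 18 DAP among those at or above the median level and with 1 sign in all 6 pairs, 1 point per library (filled circles MT, open squares WT; brown nucellus, blue integument). For each feature the 6 libraries of one tissue lie above the 6 of the other, with c85961_g1 between 88.9 and 189 CPM in the nucellus and between 0.142 and 1.28 CPM in the integument.

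Separation by library was common but not general among the called features. The 6 same-numbered differences had the same sign in 8788 of the 10260 called features, 85.7%, beside 27.1% of all features tested. The share was 85.7% of nucellus-higher and 85.6% of integument-higher features. All 6 nucellus libraries stood above all 6 integument libraries in 1999 features (3.49% of those tested), and the reverse held in 3303 (5.76%). The lowest library of the higher tissue was at least 2-fold above the highest of the other in 466 nucellus-higher and 1199 integument-higher features. A gap of at least 10-fold between those libraries was found in 108 and 178 features.

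The classes differed in how low the other tissue was. Among integument-higher features, 2422 of 6292 (38.5%) had a mean under 1 CPM in the nucellus, and their median level was 1.98 CPM there against 8.6 CPM in the integument. Among nucellus-higher features, 937 of 3968 (23.6%) had a mean under 1 CPM in the integument, with medians of 5.52 CPM there and 14 CPM in the nucellus. Over all features tested, 24.6% were under 1 CPM in the nucellus and 22.5% in the integument, with medians of 4.48 and 4.91 CPM. Of the nucellus-higher features, 59.6% reached 10 CPM in the nucellus, and 45.7% of the integument-higher features did so in the integument. A mean of at least 10 CPM in one tissue and under 1 CPM in the other was seen in 55 nucellus-higher and 187 integument-higher features.

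The balance between the tissues changed with mean abundance over both tissues. When the tested features were divided into 5 equal bins by their mean log2 CPM at 18 DAP, the share called integument-higher was 10.9%, 12.3%, 11.9%, 10.4% and 9.4% from the lowest bin to the highest. The share called nucellus-higher rose over the same bins, at 4.4%, 5.2%, 5.7%, 7.9% and 11.3%. Nucellus-higher features thus outnumbered integument-higher ones in the most abundant bin. This held under every scaling and test tried, all read on these same bins. The margin was narrowest with no filter on low counts, at 8.4% and 8.1%. The size of the called differences fell with abundance, from a median absolute log2 difference of 4 in the lowest bin to 0.90 in the highest. The mean is taken over both tissues, so a low level in one tissue lowers a feature's bin. Larger differences are thereby favoured in the lower bins, and features with larger gaps are moved out of the highest. The part of this and of depth in these trends was not tested. By class, the median log2 difference was 3.77 (nucellus-higher) and -4.09 (integument-higher) in the lowest bin. It was 0.78 and -1.04 in the highest. The sizes of the classes thus lay closer within these bins than over all called features, at 1.24 and -2.04. Among the 100 features with the highest mean FPKM, a scale that takes feature length into account, 13 were nucellus-higher and 23 integument-higher, beside 6.92% and 11% of all features tested, with a median absolute log2 difference of 0.42 over all 100.

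**Figure D2:**
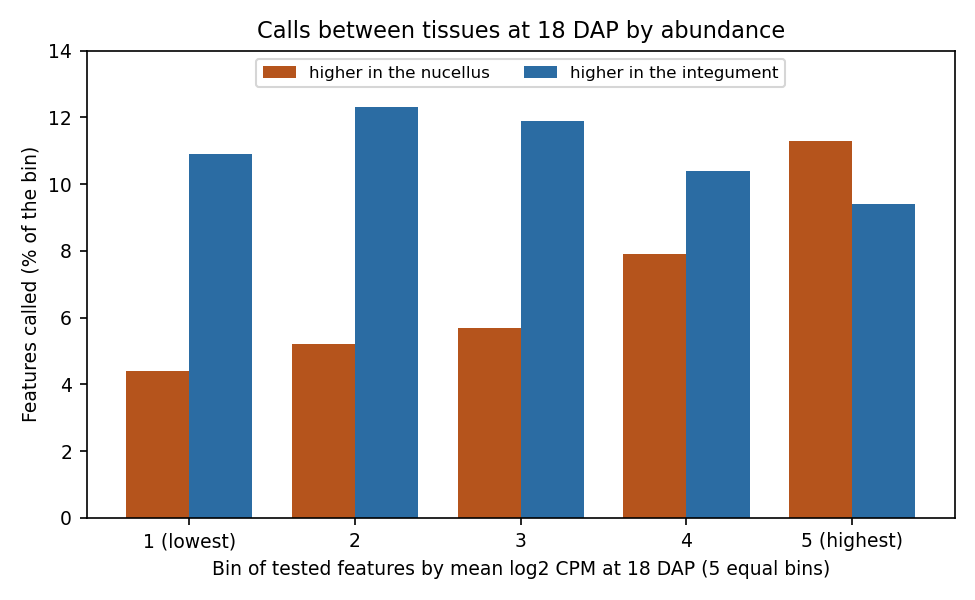
Percentage of tested features called at 18 DAP as higher in the nucellus (brown) or in the integument (blue), in 5 equal bins of mean log2 CPM from lowest to highest. Nucellus-higher calls go from 4.4% to 11.3% and integument-higher calls from 10.9% to 9.4%. The order of the bars changes in the highest bin, under each of the scalings and tests tried on these same bins. The mean is over both tissues, so a large gap itself lowers a feature's bin.

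The length implied by a feature's count and FPKM differed little between the classes. Its median was 2002 bases for nucellus-higher, 1834 for integument-higher and 1886 for features not called. A length could be derived for 95.1%, 94.1% and 83.7% of these, where the FPKM was high enough.

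The comparison within each cultivar gave the same directions with fewer calls, as each rested on 3 libraries per tissue. In MT 4918 features were called (8.58% of those tested), 1759 nucellus-higher (3.07%) and 3159 integument-higher (5.51%). In WT 3964 were called (6.91%), 1364 nucellus-higher (2.38%) and 2600 integument-higher (4.53%). WT fell to 1774 calls when both of its replicate 3 libraries were left out, and to 2276 without nucellus replicate 2; MT fell to 3273 without nucellus replicate 1 and to 3094 without nucellus replicate 2. Fitting the replicate number as a block raised both counts, with values in the last section, but the labels do not say what a number marks. The integument-higher majority held in each of the 2 cultivars.

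MT and WT share no library, so each can be read on the features called in the other. Of the 1759 nucellus-higher features of MT, 96.4% had the same sign in WT and 972 (55.3%) were also called there, with a median log2 difference of 2.00 in MT and 1.46 in WT. Of the 3159 integument-higher features of MT, 98.5% had the same sign in WT and 1992 (63.1%) were called, with medians of -2.79 and -2.30. The reverse reading gave 99.7% and 99.6% of the same sign in MT, with 71.3% of 1364 and 76.6% of 2600 WT features called. Over all features tested, 2.38% were called nucellus-higher and 4.53% integument-higher in WT, and 3.07% and 5.51% in MT. The share with the same sign in both cultivars over all features tested is not given here. No feature was called in opposite directions. The lower median outside the cultivar that chose the features holds in both readings, at 1.77 in MT for the nucellus-higher features of WT, whose own median was 1.98, and -2.65 for its integument-higher features, with -2.95.

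Each same-numbered pair of libraries showed the difference. Over the nucellus-higher features of WT, the median difference in log2 CPM was 1.69, 1.72 and 1.71 in MT pairs 1 to 3. Over the nucellus-higher features of MT, it was 1.36, 1.45 and 1.5 in the WT pairs. For the integument-higher features it was -2.46, -2.40 and -2.43 in the MT pairs and -1.92, -1.96 and -2.21 in the WT pairs. The median over all tested features was between 0 and 0.01 in each of the 6 pairs. WT pair 3, which held the most concentrated libraries, had the highest median of the 3 WT pairs in the first set and the lowest in the second.

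The same can be stated as a share of the RNA. Features called nucellus-higher in the other cultivar took 7.47% ± 1.32 of the counts in nucellus libraries and 1.83% ± 0.26 in integument libraries (SD, n = 6 each; exact two-sided permutation test within cultivar, p = 0.005, the smallest its 400 arrangements allow; 0.015 after adjustment over 6 tests). The nucellus values ran from 4.84% in WT replicate 3 to 8.46%, and the integument values from 1.42% to 2.21%, without overlap. Features called integument-higher in the other cultivar took 3.08% ± 0.62 in the nucellus and 8.81% ± 1.03 in the integument (SD, n = 6 each; exact permutation p = 0.005, adjusted 0.015). Here too the tissues did not overlap, with 2.37% to 3.98% in the nucellus and 7.49% to 10.09% in the integument. Both sets were chosen with the tissue labels of the other cultivar and were not chosen again for each arrangement. The p-values of 0.005 therefore restate the agreement between the cultivars and add no separate support. A small difference in the number of features at 1 CPM or more, with means of 42657 (nucellus) and 43660 (integument), missed the threshold after adjustment (exact permutation p = 0.04, adjusted 0.08, n = 6 each). Total counts, features above 0 and the share of the 100 most abundant features had exact permutation p-values of 0.47, 0.65 and 0.495 (n = 6 each).

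**Figure D3:**
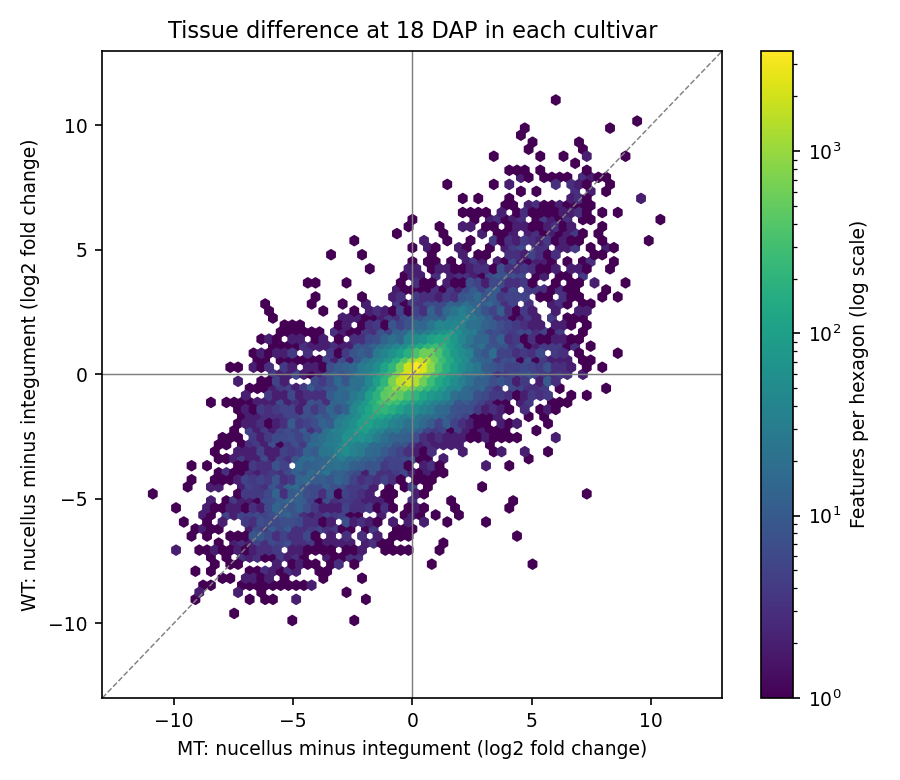
Nucellus-minus-integument log2 fold change at 18 DAP in MT (horizontal axis) against WT (vertical axis) for the 57344 tested features, coloured by the number of features per hexagon on a log scale, with the line of equal differences dashed. The features spread along the line, with a Pearson correlation of 0.723 across features.

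No difference of the tissue gap between the cultivars passed the test. Across features the MT and WT gaps had a Pearson correlation of 0.723 and a Spearman correlation of 0.621, given as a description since features of one library are not independent. The median absolute difference between the gaps was 0.36 on the log2 scale, and the median standard error of that difference was 0.70. The quasi-likelihood test of edgeR called 0 features (0% of those tested), with 1313 at an unadjusted p under 0.05. DESeq2 called 0 (1641 unadjusted), limma-voom 0 (1147), and limma on log2(FPKM + 1) and log2(FPKM + 0.1) 0 (1270 and 1231). Each of these unadjusted counts is below the 0.05 share of tests that would fall there on average with no difference at all. A 2-fold difference, 1 on the log2 scale, is under 2 median standard errors, so the count of 0 does not show that the gaps are alike.

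The features with the lowest unadjusted p in each direction, at or above the median level, are given as a description. Picking the most extreme of all tests favours large differences and separate groups even where the cultivars do not differ. For c50178_g1 the nucellus level was 5.99, 6.19 and 5.24 CPM in MT and 3.28, 3.96 and 5.46 CPM in WT. The integument level was 3.36, 0.959 and 2.11 CPM in MT and 3.43, 5.38 and 5.62 CPM in WT. The tissues were separate in MT and overlapped in WT, with log2 differences of 1.43 ± 0.35 and -0.19 ± 0.34 (SE, n = 3 libraries per tissue). The difference of these was 1.62 ± 0.48 (SE; edgeR adjusted p = 1).

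For c53738_g1 the order was the other way round. Its nucellus level was 5.87, 6.26 and 5.51 CPM in MT and 7.18, 6.40 and 11.1 CPM in WT. The integument level was 10.9, 7.48 and 9.08 CPM in MT and 3.56, 3.87 and 5.80 CPM in WT. The integument was higher in all 3 MT pairs and the nucellus in all 3 WT pairs. The difference of the gaps was -1.54 ± 0.49 on the log2 scale (SE; edgeR adjusted p = 1), so neither feature was called.

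Complete restriction to one tissue was rare under the limits used here. A feature was counted as restricted when it reached 1 CPM in all 6 libraries of one tissue and had at most 3 counts summed over the 6 of the other. This held for 17 of the 36280 features at 1 CPM or more in all nucellus libraries (0.0469%) and for 21 of the 36710 in all integument libraries (0.0572%). Both tissues shared 33518 features at this level in all 12 libraries. The count of restricted features depends on the limit in their own tissue. The total was 38 at 1 CPM, 1 at 5 CPM and 85 at 0.5 CPM. Restricted features were of low to middle abundance, with mean levels of 1.65 to 11.2 CPM in the nucellus and 1.74 to 9.17 CPM in the integument. Only 2 nucellus-restricted and 4 integument-restricted features had 0 counts in the other tissue. Against a floor of 3 counts over the 6 libraries, those 6 were at least 68.1-fold to 213.7-fold higher in their own tissue. Since these features were chosen for the contrast, their values are a description without a test.

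The most abundant nucellus-restricted feature was c127604_g1. In the nucellus it stood at 7.49, 30.5 and 9.54 CPM in MT and 7.29, 5.64 and 6.80 CPM in WT. It had 2 counts in the integument, both in MT replicate 2, against 1061 in the nucellus, a ratio of 540 with a 95% exact counting interval of 149 to 4463. MT nucellus replicate 2 was far above the other nucellus libraries, which ran from 5.64 to 9.54 CPM. The next, c92169_g1, ran from 1.48 CPM in MT replicate 3 to 15.01 CPM in MT replicate 2, and 712 counts in the nucellus stood against 3 in the integument, 1 in each WT library.

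On the integument side, c92568_g1 had 11.3, 8.25 and 20.3 CPM in MT and 2.39, 3.44 and 9.41 CPM in WT. Its nucellus counts were 0 apart from 3 in MT replicate 3, against 877 in the integument, a ratio of 287 with a 95% exact counting interval of 98.0 to 1396. The feature c4040_g1 had 7.72, 5.24 and 14.3 CPM in MT and 4.27, 6.13 and 9.59 CPM in WT, with 774 counts in the integument and 3 in the nucellus. In both features the highest library of each cultivar was replicate 3, and the ranges of the cultivars overlapped.

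Few restricted features met the same limits later. Of the 17 nucellus-restricted features, 1 was at 1 CPM or more in all 6 nucellus libraries at 28 DAP and 5 were at 32 DAP, and none met both limits at either stage. Of the 21 integument-restricted features, 10 and 9 kept 1 CPM in all 6 integument libraries, and 2 and 3 met both limits. Levels in the other tissue stayed low, as 1 nucellus-restricted feature reached 1 CPM in an integument library, at 32 DAP, and no integument-restricted feature did so in the nucellus at either stage. Applied at the later stages, the same limits chose 5 nucellus and 15 integument features at 28 DAP and 8 and 8 at 32 DAP, beside 17 and 21 at 18 DAP. These counts sit at the limit of detection and are no test of change.

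Most of the tissue difference at 18 DAP was also seen at the later stages, which share no library with it. The calls of all stages came from the same fit over the 36 libraries and share its estimate of spread. At 28 DAP 9979 features were called between the tissues (17.4% of those tested), 7.18% towards the nucellus and 10.2% towards the integument. At 32 DAP 7584 were called (13.2%), 4.81% and 8.41% in these directions. Of the 3968 nucellus-higher features of 18 DAP, 96.8% had the same sign at 28 DAP and 97.4% at 32 DAP, and 59.8% and 51.3% were called again. Of the 6292 integument-higher features, 98.4% and 98.3% had the same sign and 70% and 63.1% were called again. The median log2 difference of the nucellus-higher features was 1.24 at 18 DAP, 0.93 at 28 DAP and 0.85 at 32 DAP, and that of the integument-higher features was -2.04, -1.73 and -1.5. These features were chosen at 18 DAP, and lower medians elsewhere were also found in the reverse direction: nucellus-higher features of 28 DAP had 1.15 there and 0.88 at 18 DAP.

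Calls at all 3 stages numbered 1737 nucellus-higher and 3580 integument-higher features. Calls in the opposite direction were 1 at 28 DAP and 3 at 32 DAP, each nucellus-higher at 18 DAP. Across features, the gaps at 18 and 28 DAP had a Pearson correlation of 0.811, as did those at 18 and 32 DAP, and those at 28 and 32 DAP had 0.844, all as descriptions.

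Features with the largest gaps at both later stages were then read at 18 DAP. There were 222 called and over 16-fold higher in the nucellus at 28 and at 32 DAP. All 222 had the same sign at 18 DAP, 203 were called (6.92% of all tested features were called nucellus-higher), and in 173 all nucellus libraries stood above all integument libraries (3.49% of all tested features did so). Their median log2 difference was 5.39 at 18 DAP, beside 5.60 and 5.14 at the stages that chose them. Summed over the set, the level at 18 DAP was 23088, 24371 and 26666 CPM in the MT nucellus and 23019, 22914 and 18226 CPM in the WT nucellus. In the integument it was 313, 298 and 383 CPM in MT and 305, 119 and 204 CPM in WT. The lowest nucellus library was thus 47.6 times the highest integument library, and 20 members had 0 counts in all 6 integument libraries.

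The matching integument set held 640 features. All 640 had the same sign at 18 DAP, 611 were called (11% of all tested features were called integument-higher), and in 457 all integument libraries stood above all nucellus libraries (5.76% of all tested features did so). The median log2 difference was -5.27 at 18 DAP, beside -5.41 and -5.23. Summed levels at 18 DAP were 7839, 9060 and 8789 CPM in the MT integument and 8623, 8057 and 6835 CPM in the WT integument. In the nucellus they were 330, 338 and 294 CPM in MT and 339, 224 and 239 CPM in WT. The lowest integument library was 20.15 times the highest nucellus library, and 50 members had 0 counts in all 6 nucellus libraries.

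**Figure D4:**
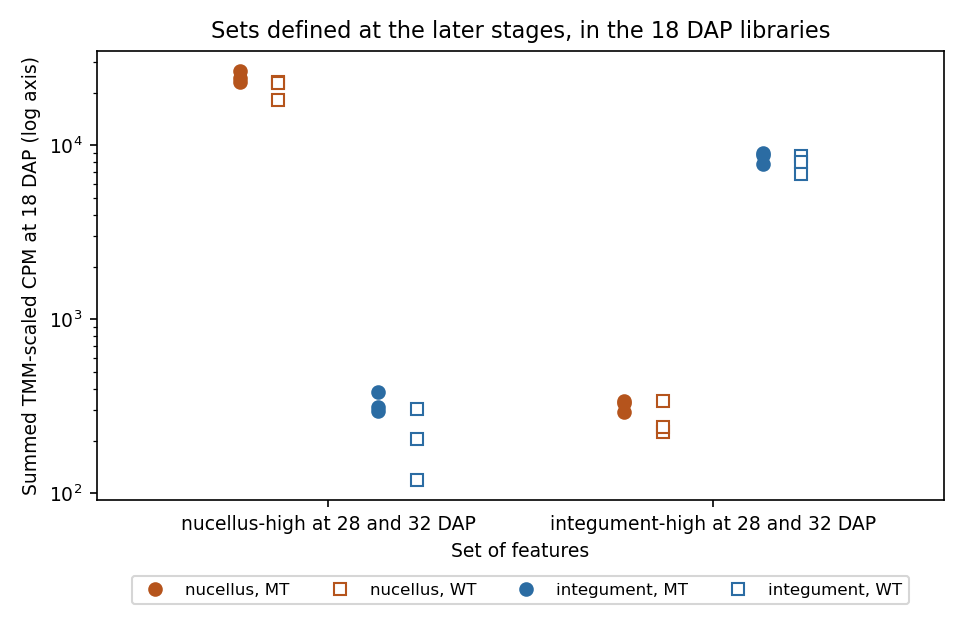
Summed TMM-scaled CPM (log axis) in the 12 libraries of 18 DAP for the 222 nucellus-high and 640 integument-high features chosen at 28 and 32 DAP, 1 point per library (filled circles MT, open squares WT; brown nucellus, blue integument). The nucellus set lies between 18226 and 26666 CPM in the nucellus and 119 and 383 CPM in the integument, and the integument set between 6835 and 9060 CPM and 224 and 339 CPM.

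Few gaps could be shown to differ in size between 18 DAP and later. The gap at 18 DAP minus the mean of the later gaps was called in 5 features (0.00872% of those tested; 2482 at an unadjusted p under 0.05), all 5 more towards the nucellus at 18 DAP. The gap at 18 DAP minus that at 28 DAP was called in 0 features by edgeR (0%; 2431 at an unadjusted p under 0.05) and limma-voom, in 11 by DESeq2, and in 6 and 1 by limma on log2(FPKM + 1) and log2(FPKM + 0.1). Against 32 DAP, 1 feature was called (0.00174%), but 0 without both WT replicate 3 libraries of 18 DAP, 29 in DESeq2, 30 and 15 in limma on FPKM, and between 0 and 11 when single libraries were left out (0 for 10 of them). Both unadjusted counts above are below the 0.05 share of tests that would fall there on average with no difference at all. The median standard error of the difference from the later mean was 0.43 on the log2 scale. The count of 5 was fragile: it was 0 with RLE size factors, 31 in DESeq2 (22 towards the nucellus and 9 towards the integument), 45 and 24 in limma on FPKM (28 and 17, 16 and 8), 0 without both WT replicate 3 libraries of 18 DAP, and between 0 and 23 when single libraries were left out.

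The 5 features were read in both tissues at all stages. They are all named, since so few were called, and all had an adjusted p of 0.046 in edgeR. For c39461_g1 the nucellus level at 18 DAP was 2.28, 5.86 and 5.17 CPM in MT and 3.56, 6.40 and 2.22 CPM in WT. In the integument it had 1 count in the 3 MT libraries together and 1.29, 0.236 and 0.355 CPM in WT. All nucellus libraries stood above all integument libraries at 18 DAP. At the later stages the tissues overlapped over both cultivars, with 0.646 to 3.23 CPM in the nucellus and 0 to 2.23 CPM in the integument. Within MT they did not: the nucellus held 1.33 to 3.23 CPM at 28 DAP and 1.44 to 2.07 CPM at 32 DAP, against 0 to 1.29 and 0.413 to 1.10 CPM in the integument, and the nucellus was higher in all 3 MT pairs at both stages. The log2 gap was 5 ± 0.69 at 18 DAP (SE, n = 6 libraries per tissue), 0.65 ± 0.53 at 28 DAP and 0.44 ± 0.52 at 32 DAP, a difference of 4.46 ± 0.79. The MT integument held so few counts that the fitted size is uncertain, and in limma on log2(FPKM + 1) the difference was 1.24.

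The feature c128424_g1 was more abundant and changed less. Its nucellus level at 18 DAP was 37.8, 65.7 and 40.2 CPM in MT and 73.4, 73.0 and 37.1 CPM in WT. The integument level was 27.1, 23.5 and 18.9 CPM in MT and 34.7, 35.9 and 26.0 CPM in WT. The nucellus libraries all stood above the integument libraries at 18 DAP. The log2 gap was 0.99 ± 0.20 at 18 DAP, -0.40 ± 0.19 at 28 DAP and -0.33 ± 0.19 at 32 DAP, neither of the later gaps being called. The difference was 1.35 ± 0.24 (SE, n = 6 libraries per tissue and stage).

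Together these features make up the gaps seen at 18 DAP alone, defined as called at 18 DAP, called in the difference from later stages with the same sign, and both uncalled and under 2-fold at 28 and 32 DAP. There were 2 such features, both nucellus-higher. The definition reads the mean of the cultivars, and in MT the nucellus excess of c39461_g1 was still seen later, as given above. The count of 2 became 0 under RLE size factors, under limma-voom and without both WT replicate 3 libraries of 18 DAP, and 12 in DESeq2 and 18 in limma on log2(FPKM + 1), where 3 and 12 of them were integument-higher. Leaving out single libraries gave between 0 and 8.

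The feature c51117_g1 missed this definition by its gap at 32 DAP. Its nucellus level at 18 DAP was 18.3, 23.8 and 23.0 CPM in MT and 19.3, 27.9 and 15.3 CPM in WT. The integument level was 1.77, 2.62 and 1.83 CPM in MT and 4.78, 5.61 and 2.13 CPM in WT. The groups were clearly separate at 18 DAP, and the integument-to-nucellus order turned at 32 DAP without being called. Its log2 gap was 2.85 ± 0.44, then 0.31 ± 0.41 and -1.02 ± 0.41, and the difference from the later mean was 3.20 ± 0.52 (SE, n = 6 libraries per tissue and stage). By edgeR it was the single feature called against 32 DAP, with the dependence on libraries and tests given above, at 3.87 ± 0.60 (SE; edgeR adjusted p = 0.023).

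The remaining features had gaps towards the integument at the later stages, and only c80321_g1 was also called towards the nucellus at 18 DAP. For c80321_g1 the nucellus level at 18 DAP was 15.04, 17.8 and 19.7 CPM in MT and 14.6, 14.9 and 8.42 CPM in WT. The integument level was 12.0, 10.2 and 10.6 CPM in MT and 8.53, 5.47 and 10.0 CPM in WT. The nucellus was higher in 5 of the 6 pairs at 18 DAP, WT replicate 3 being the exception. Its gap of 0.67 ± 0.22 at 18 DAP (SE; edgeR adjusted p = 0.033) became -0.83 ± 0.23 at 28 DAP and -0.97 ± 0.23 at 32 DAP (adjusted p = 0.0093 and 0.0031 in edgeR). The difference from the later mean was 1.57 ± 0.28. For c56057_g1 the gap at 18 DAP was 0.33 ± 0.18 and not called (edgeR adjusted p = 0.22), while -0.90 ± 0.18 and -0.89 ± 0.18 at the later stages were called, a difference of 1.22 ± 0.22.

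The tissue in which these features changed was read from the same fit. From 18 DAP to the mean of the later stages, 77 features were called lower in the nucellus (0.134% of those tested), and 4 of the 5 were among them. The 5 were chosen by a contrast of the same libraries that is made of a nucellus fall and an integument rise, so the choice favours such changes and nothing is read from this count against the share. In the nucellus c51117_g1 fell by 1.96, c80321_g1 fell by 1.68, c56057_g1 fell by 1.44 and c128424_g1 fell by 0.90 on the log2 scale. The change of c39461_g1 in the nucellus, -1.57 ± 0.42, was not called (edgeR adjusted p = 0.11). In the integument 84 features were called over the same interval (0.146%), and none of the 5 was among them. The largest integument changes were 2.89 ± 0.66 for c39461_g1 and 1.25 ± 0.38 for c51117_g1 (edgeR adjusted p = 0.059 and 0.19). In all, 44 of the 3968 nucellus-higher features of 18 DAP were called lower in the nucellus later, a direction favoured by choosing them for high nucellus levels in the same 18 DAP libraries.

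**Figure D5:**
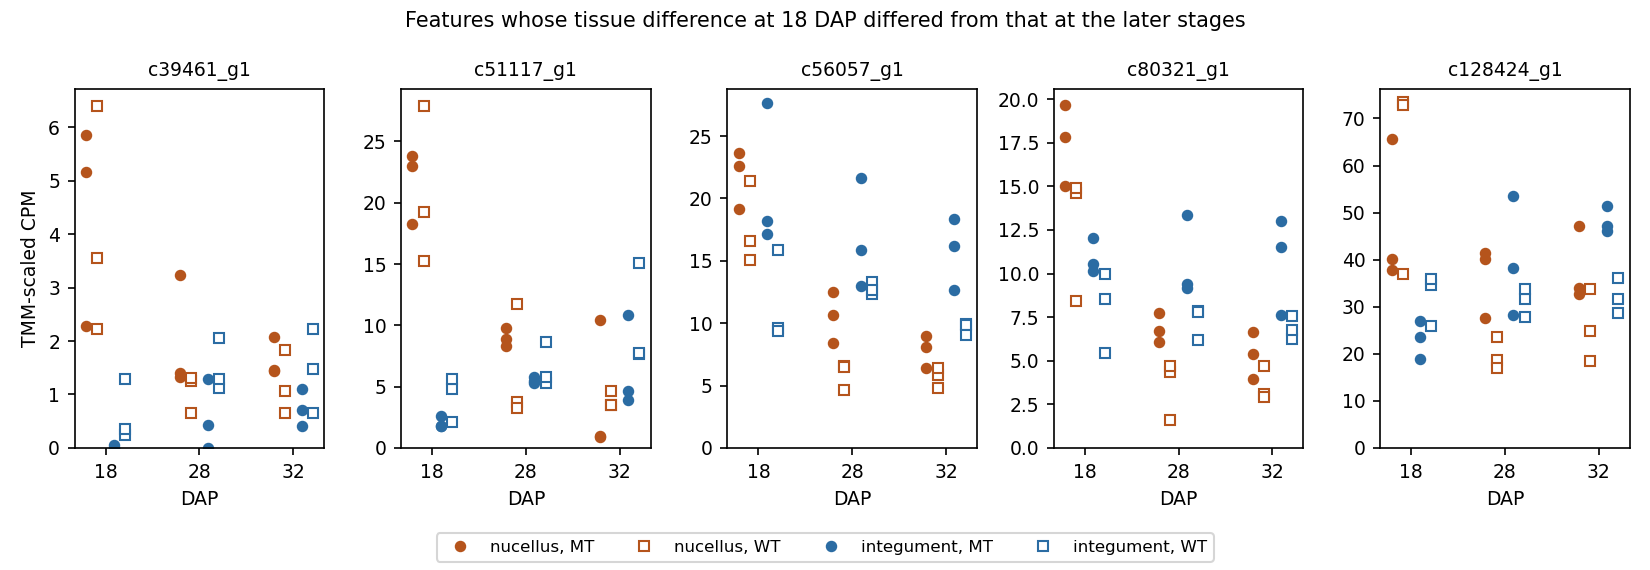
TMM-scaled CPM by stage in DAP for the 5 features whose tissue gap at 18 DAP differed from the mean of the later gaps, 1 point per library (filled circles MT, open squares WT; brown nucellus, blue integument). Nucellus points are lower at 28 and 32 DAP than at 18 DAP in most libraries, as for c51117_g1, which held 15.3 to 27.9 CPM in the nucellus at 18 DAP.

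A looser reading counts features by calls alone. At 18 DAP 849 features (358 nucellus-higher and 491 integument-higher, 8.3% of the called) were called and over 2-fold there, and both uncalled and under 2-fold at the other stages. At 28 DAP the same reading gave 598 features (342 and 256, 6% of the called) and at 32 DAP 188 (86 and 102, 2.5%). These counts pick features by passing in one stage and missing in others, and do not test a difference between stages. Of the 849, 376 had an unadjusted p under 0.05 for the difference from the later mean, a value that the choice itself favours. Of the 2 features that passed the full test, c39461_g1 is among the 849. The other, c128424_g1, is not, as its log2 gap of 0.99 at 18 DAP is under 2-fold.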

How the data were processed

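RNA-seq of laser-captured nucellus and integument was used as deposited. Per the labels' protocols, captured RNA was amplified from random primers and sequenced as paired ends on 2 Illumina models, with no record of which library ran on which model. The authors deposited a count table and an FPKM table (scaled to feature length and library total) over 128861 features, made with Bowtie2, RSEM, cutadapt and DESeq (no versions) per the submitters' processing notes. For the reference sequence, the sources used here give no name. The deposited counts were whole numbers and were used as they stood; whether they are rounded RSEM estimates is not recorded. RSEM splits reads between similar sequences, so near-identical copies can share counts.

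All columns were assigned to samples by name. Tissue, cultivar and replicate are spelled out there, and the stage digit was read as described in the results; 0 columns were left unassigned. The filter filterByExpr, with the 12 groups, passed 57344 features, which took 99.72% to 99.90% of each 18 DAP library. The test was edgeR 4.0.16 (R 4.3.3), with TMM factors (0.791 to 1.227 at 18 DAP) and a quasi-likelihood model with 1 mean for each of the 12 groups over all 36 libraries. The common biological coefficient of variation was 0.44. P-values were adjusted over all tested features by Benjamini-Hochberg, and features under 0.05 were called. Standard errors come from the quasi-likelihood F statistic, and log2 CPM used a prior count of 2. The tissue gap averages the nucellus-minus-integument difference over both cultivars, and cultivar and stage differences of the gap were contrasts of the same model. DESeq2 1.42.0, limma-voom and limma 3.58.1 on log2 FPKM with a pseudocount of 1 or 0.1, other scalings and filters, a replicate block and leaving out libraries were alternatives. No pair of replicates agreed within sampling noise, as the chi-square per degree of freedom was 14 or more in each.

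Features named for the tissue gap at 18 DAP were called and averaged at least the median log2 CPM of 2.14. They also had the same sign in all 6 pairs and were the 2 largest each way. Restricted features were named by the highest mean CPM in their own tissue, 2 each way. For the cultivar difference the 3 MT gaps had to lie on one side of the 3 WT gaps, and for the stage difference both 18 DAP gaps on one side of the 4 later ones. Where none was called, the lowest unadjusted p each way was named. All 5 features of the stage difference were named after their values were seen. The members, lists and tests were chosen with earlier results of these data known. Reads carry no molecular identifiers, so intervals and floors cover counting error only.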

Additional observations from a re-analysis of the deposited data

Results flagged for a closer look

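Among 38 groups of 6 libraries checked at 18 DAP, 5 held a library far from the other 5, by a rule whose threshold lets chance flag about 1 in 20 groups. The groups share libraries and are not independent. WT nucellus replicate 3 was apart in 3 of them. Its 100 most abundant features took 45.6% of the counts, and features called nucellus-higher in MT took 4.84%, the lowest share of its tissue. After TMM scaling c53738_g1 stood at 11.1 CPM there, the highest, but its FPKM of 2.77 was also that of WT nucellus replicate 1. WT integument replicate 1 held 1.29 CPM of c39461_g1, above the other integument libraries. MT nucellus replicate 2 held 30.5 CPM of c127604_g1, above the other nucellus libraries.

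The tissue gap at 18 DAP differed from the mean of the later gaps, by the edgeR test of that difference, in 5 features. On the log2 scale the difference was 4.46 for c39461_g1, 3.20 for c51117_g1, 1.57 for c80321_g1, 1.35 for c128424_g1 and 1.22 for c56057_g1, each with an adjusted p of 0.046.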

How the results depend on the processing

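The 10260 calls between tissues at 18 DAP stayed within 1.5 times under all 23 alternatives (7971 to 14505; 8653 to 9448 without single libraries), and the 4 features named for it kept their direction and call in each. The cultivar difference gave 0 calls in all 23, and 0 to 0 without single libraries, with 961 to 2230 features at an unadjusted p under 0.05. Calls in MT ran from 3094 to 4957 and in WT from 2276 to 3955 without single libraries, and WT had 1774 without both replicate 3 libraries, an alternative chosen after seeing the data. limma on log2(FPKM + 0.1) moved the median of all tested features in MT from 0.015 to 0.116 on the log2 scale, and in the cultivar difference from -0.001 to 0.102.

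The stage differences depended on the processing, and the cause was not tested. The difference from the later mean, 5 features, became 0 with RLE, 8 with at least 10 counts in 6 libraries, 31 in DESeq2, 45 and 24 in limma on FPKM with a pseudocount of 1 and 0.1, and 0 without both WT replicate 3 libraries of 18 DAP. That from 28 DAP, 0 features, became 11, 6 and 1 in DESeq2 and the same limma fits. That from 32 DAP, 1 feature, became 2 with upper quartile scaling and in limma-voom, 7 with no filter, 29 in DESeq2, 30 and 15 in limma on FPKM and 0 without both WT libraries. Gaps at 18 DAP alone, 2 features, became 0 with RLE, limma-voom or without both WT libraries, 4 with upper quartile scaling, 12 in DESeq2 and 18 and 9 in limma on FPKM. Without single libraries these 4 counts ran from 0 to 23, 0 to 3, 0 to 11 and 0 to 8. Leaving out any of 29 of the 36 libraries moved the first by over 1.5 times, in 18 cases to 0, and it was highest, at 23, without WT nucellus replicate 1 of 28 DAP. The 5 stage features kept their sign in all 46 alternatives, and missed the threshold in 21 (c51117_g1) to 32 (c56057_g1) of them, at an adjusted p of at most 0.18. Restricted features, 38 in all, numbered 6 at 0 counts in the other tissue, 1 at 5 CPM and 85 at 0.5 CPM, and 42 to 56 without single libraries, where fewer libraries have to meet the limits.

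The labels do not say what a replicate number marks. Same-numbered libraries of the tissues deviated together with a correlation over 0.1 in 17 of 18 pairs, from 0.053 (MT replicate 1 at 18 DAP) to 0.482, and both libraries correlated best with their own number in 17 of 18, a hint from the data only. With a replicate block, calls were 14505 for the gap at 18 DAP, 8548 in MT and 6894 in WT, 0 for the cultivar difference, 21, 0 and 14 for the stage differences from the later mean, 28 and 32 DAP, and 8 for gaps at 18 DAP alone.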
